A study of Homo sapiens with 18 samples.

Results

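The promoter and flanks of TMEM173, the gene for the innate immune adaptor STING (current symbol STING1), were examined for histone marks in human lung adenocarcinoma cells. All peak summits that 13 libraries placed in the hg19 window 5:138820-138890 kb were taken, without regard to their strength. These were 52 of the 947675 summits in the series. TMEM173 is transcribed on the minus strand from about 138862 kb, so lower coordinates lie downstream, on the side of the gene body. Distances from this start are approximate, because the start is given only to the nearest kb.

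STING is a membrane protein of the endoplasmic reticulum. It binds the cyclic dinucleotide that the sensor cGAS makes when DNA appears in the cytosol, and then recruits the kinase TBK1, which activates the transcription factor IRF3 and type I interferon genes. H3K4me3 and H3K27ac lie at active promoters, H3K27ac also at active enhancers, and H3K4me1 at enhancers and on the flanks of promoters. The study concerned STING and the reawakening of dormant metastases.

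Chromatin immunoprecipitation with sequencing (ChIP-seq) was run for the 3 marks in 4 conditions. These were H2087-LCC cells given 100 nM TGF-β1 for 4 days (TGFb), the subline H2087-LCC-SO1 (SO1), the separate line H2030, and untreated H2087-LCC (LCC). All are labelled as human lung adenocarcinoma, which was not checked here against marker genes, since no positions of other genes in hg19 were used. H2030 was grown in a simpler medium, without the hydrocortisone, insulin, transferrin, selenite and epidermal growth factor of the other cultures, so line and medium cannot be told apart. LCC H3K27ac had 2 biological replicates and every other combination had 1 library, so no test between conditions was possible. Each summit has a score from the authors, a −log10 p-value or q-value to judge by its range, which depends on sequencing depth. Depth is unknown here. Scores were therefore ranked within their own list, and no change was read from scores or ranks of different lists. A mark in fewer cells and a weaker mark in each cell cannot be told apart in such data.

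TGFb contributed 15 of the 52 summits, SO1 14, H2030 2 and LCC 21, the last from 4 libraries. By mark, 3 summits were H3K4me3, 20 were H3K27ac and 29 were H3K4me1. The window thus held 1 H3K4me3 summit in each of the TGFb, SO1 and LCC lists, and none in H2030. H3K27ac gave 5 summits in each of the TGFb, SO1 and LCC libraries, and again none in H2030. H3K4me1 gave 9 summits in TGFb, 8 in SO1, 2 in H2030 and 10 in LCC.

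**Figure D1:**
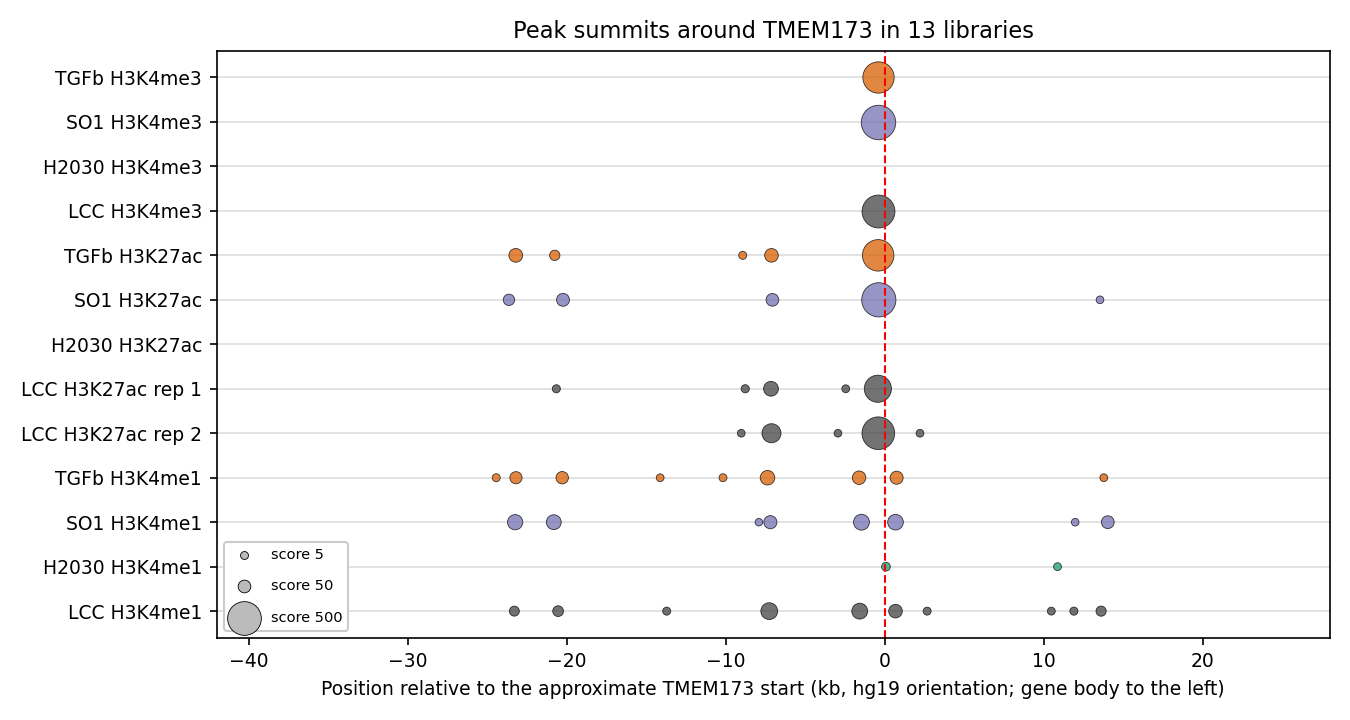
Peak summits of the 13 libraries by distance from the approximate TMEM173 start (kb; the gene body lies to the left), with 1 row per library and the area of a point growing with the authors' score. The largest points, for H3K4me3 and H3K27ac, stand at the start in TGFb, SO1 and LCC, while the H2030 rows hold only 2 small H3K4me1 points.

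The H3K4me3 summits marked a single promoter at the start of TMEM173. They stood at 138861605 in TGFb, 138861585 in SO1 and 138861556 in LCC, a span of 49 bp. Each lay about 0.4 kb from the approximate start, too close to tell on which side of the true start. The score was 429 in TGFb, 524 in SO1 and 475 in LCC. Within their own lists these were strong but common values: 34.7% of the TGFb summits, 28.1% of the SO1 summits and 22.7% of the LCC summits scored as high or higher.

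H3K27ac at the same promoter was among the strongest peaks of the genome in each H2087 library. The summit stood at 138861605 in TGFb, 138861635 in SO1, and 138861585 and 138861612 in LCC replicates 1 and 2, a span of 50 bp. It scored 433 in TGFb, 516 in SO1, and 315 and 468 in the LCC replicates. By score it ranked 603 of 68069 summits in TGFb and 149 of 56279 in SO1. In LCC it ranked 22 of 50628 in replicate 1 and 16 of 62947 in replicate 2. The lists thus placed it in their first 0.886% (TGFb), 0.265% (SO1), and 0.0435% and 0.0254% (LCC replicates 1 and 2). All of these ranks are high, and their order across conditions carries no comparison, because the lists differ in length and depth.

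The position of the promoter H3K27ac summit lay within the range of the replicate scatter in TGFb and SO1. The LCC replicates placed it 27 bp apart, the TGFb summit lay 20 bp and 7 bp from those of replicates 1 and 2, and the SO1 summit 50 bp and 23 bp. Over the genome, 84.2% of the replicate 1 H3K27ac summits had a replicate 2 summit within 1 kb, at a median distance of 89.0 bp, and of 43.0 bp for the 10% of replicate 1 with the highest scores (90th percentile 414 bp). In TGFb the H3K27ac and H3K4me3 summits fell on the same base. They lay 50 bp apart in SO1, and 29 and 56 bp apart in LCC.

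H3K4me1 framed the promoter on both sides in each H2087 condition. In TGFb its summits lay 1209 bp downstream and 1156 bp upstream of the H3K4me3 summit, with scores of 59.9 and 54.9. In SO1 they lay 1035 bp downstream and 1102 bp upstream, with scores of 92.3 and 88.9. In LCC they lay 1113 bp downstream and 1138 bp upstream, with scores of 92.3 and 61.8. The frame is thus nearly symmetric, with no H3K4me1 summit between the flanks. It is also a common layout: 48.6% of the H3K4me3 summits at or above the list median in TGFb, 51.1% in SO1 and 54.1% in LCC had H3K4me1 between 500 and 2000 bp away on each side and none nearer.

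**Figure D2:**
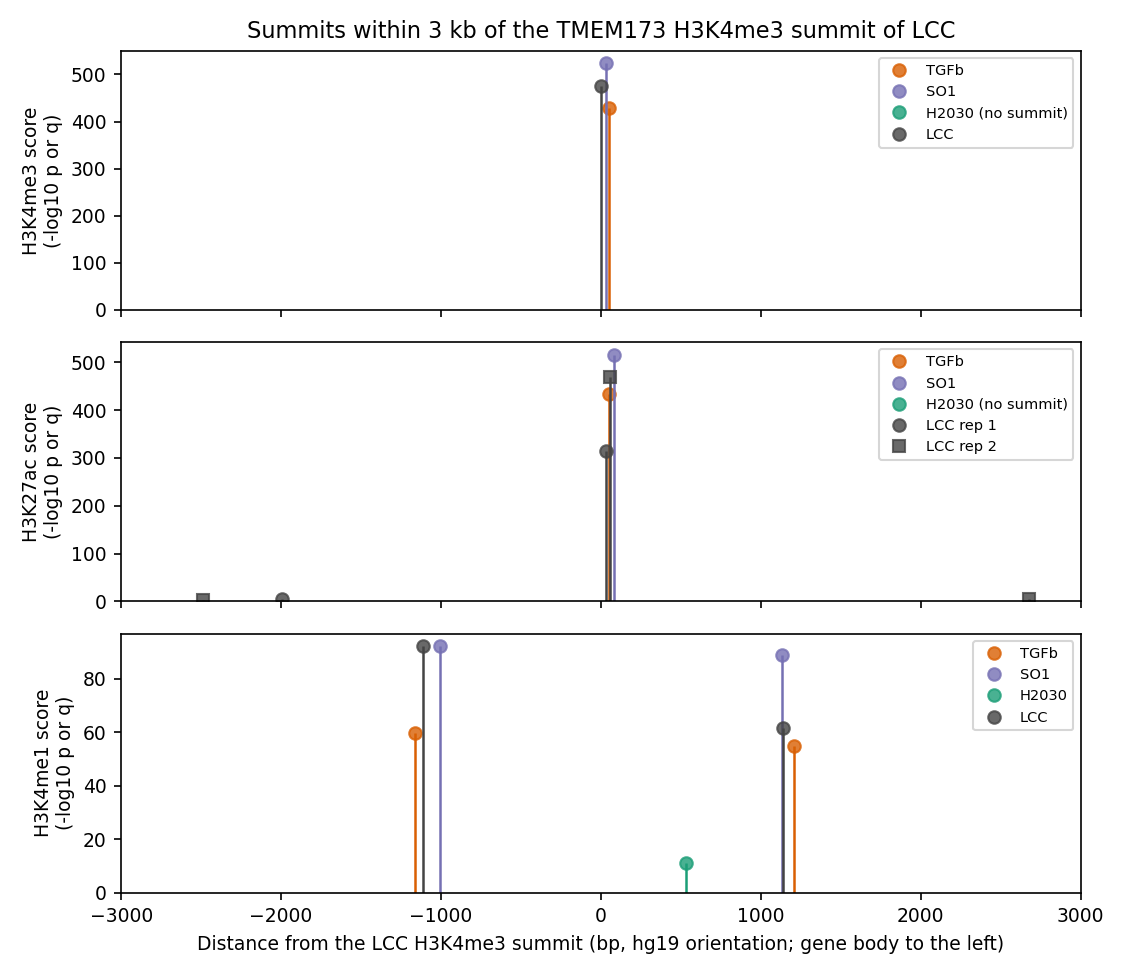
Summit scores (−log10 p or q, from 0) of the 3 marks within 3 kb of the LCC H3K4me3 summit at TMEM173, by distance in bp with the gene body to the left; colours are conditions, and squares are LCC replicate 2. H3K4me3 and H3K27ac coincide in TGFb, SO1 and LCC, H3K4me1 lies to either side, and H2030 has 1 low H3K4me1 summit between the flanks.

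H2030 lacked both marks of an active promoter at TMEM173 and kept a weak H3K4me1 summit. That summit stood at 138862087, 531 bp upstream of the LCC H3K4me3 summit and thus between the H3K4me1 flanks seen in the H2087 conditions. Its score was 11.1, near the H2030 H3K4me1 list median of 8.44, and 40.5% of that list scored as high or higher. The only other H2030 summit of the window was H3K4me1 at 138872879, with a score of 4.05. The nearest H2030 H3K4me3 summit to the LCC one lay 36275 bp away, and the nearest H2030 H3K27ac summit 35915 bp away. H2030 had no H3K4me3 summit over 122782 bp around the promoter, and no H3K27ac summit over 122399 bp. LCC itself had only 1 H3K4me3 summit, that of TMEM173, between its summits at 138775079 and 138897906. Its H3K27ac replicates had 5 summits each in the window.

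Few strong LCC promoters showed this pattern, and the share fell as a higher H3K4me3 score was required. The promoters were not matched to TMEM173 in the strength of H3K27ac. LCC H3K4me3 summits at or above the list median of 189 were taken as strong promoters, and 10392 of them carried H3K4me3 and H3K27ac within 1 kb in every LCC, TGFb and SO1 library. Of these, 328 (3.16%; Wilson 95% interval 2.84 to 3.51, counting error only) had neither an H3K4me3 nor an H3K27ac summit of H2030 within 10 kb. Among the top 25% of LCC H3K4me3 summits the share was 39 of 5744, or 0.679%. TMEM173 belongs to that set near its lower edge, in the first 22.7% of the list. Without any condition on strength it was 9.78%. An H2030 H3K4me1 summit within 1 kb, as at TMEM173, was found at 33 of the 328 (10.1%; 7.25 to 13.8), against 66.0% of the 9302 such promoters that had both other marks in H2030 within 1 kb. The 1 kb limit can miss flanking H3K4me1: at TMEM173 the nearest LCC, TGFb and SO1 summits lay 1113, 1160 and 1006 bp away. In 157 of the 328 the nearest H2030 H3K4me3 or H3K27ac summit was at least as far away as at TMEM173. The LCC H3K4me3 score was at or below that of TMEM173 in 295 of the 328.

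**Figure D3:**
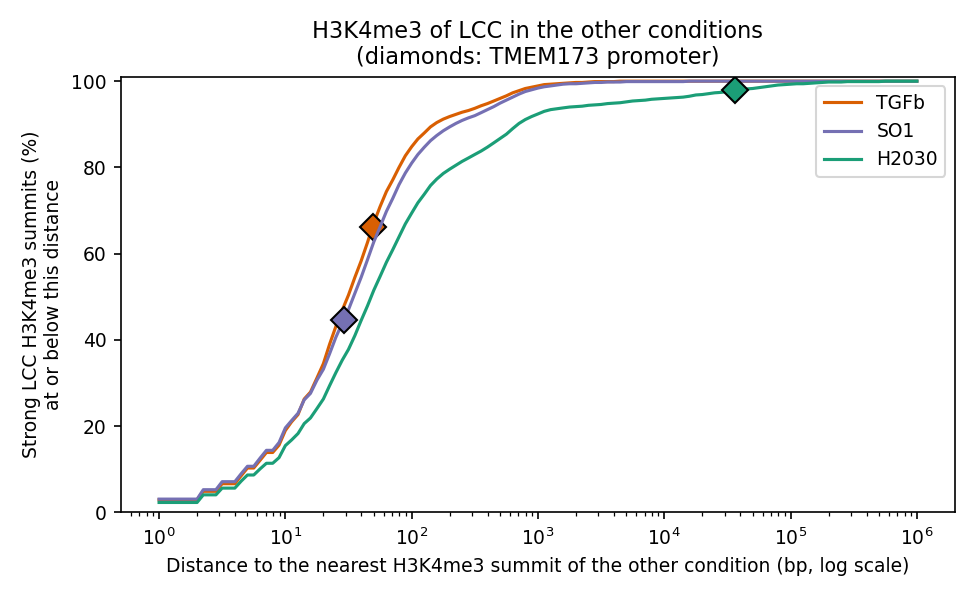
Share of strong LCC H3K4me3 summits (%, at or above the list median) whose nearest H3K4me3 summit in TGFb, SO1 or H2030 lies at or below a distance (bp, log axis); diamonds mark the TMEM173 promoter. TMEM173 sits at 49 bp in TGFb and 29 bp in SO1, within the steep part of the curves, and at 36275 bp in H2030, in the far tail.

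The next H3K4me3 summits on either side of TMEM173 were present in all 4 conditions. The nearest one downstream, 86.9 kb from the start, scored 568 in TGFb, 553 in SO1, 496 in H2030 and 546 in LCC. The nearest one upstream, 35.9 kb from the start, scored 255 in TGFb, 260 in SO1, 258 in H2030 and 251 in LCC. H3K27ac at the downstream neighbour scored 208 in TGFb, 200 in SO1, 180 in H2030, and 86.8 and 95.6 in the LCC replicates. At the upstream neighbour it scored 92.8 in TGFb, 44.0 in SO1, 119 in H2030, and 37.9 and 25.9 in LCC. H2030 therefore had called peaks of both marks at each neighbour, and neither mark at TMEM173 between them. Over the 250 kb below the window H2030 had as many H3K4me3 summits as LCC, 8 each. Over the 250 kb above it H2030 had fewer, 4 against 12 in LCC, and 5 H3K27ac summits against 21 and 24 in the LCC replicates. Differences in DNA copy number in H2030 were not tested.

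**Figure D4:**
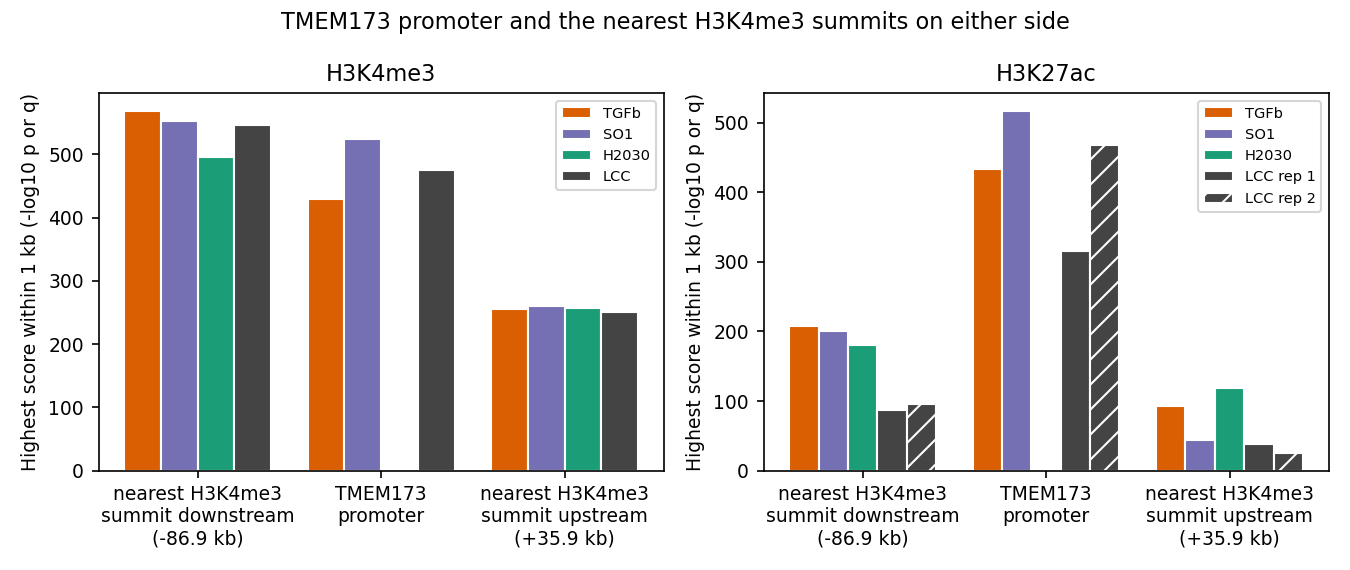
Highest H3K4me3 score (left panel) and H3K27ac score (right panel) within 1 kb of the TMEM173 promoter and of the nearest LCC H3K4me3 summit on each side, as bars from 0 (−log10 p or q) for each library; no bar means no summit. H2030 has bars at both neighbours and none at TMEM173.

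Windows of this kind were also counted over the genome. Of 9330 tiles of 70 kb that held a strong LCC H3K4me3 summit, 180 (1.93%) had no H3K4me3 and no H3K27ac summit of H2030, as in the TMEM173 window. The tiles were not matched to the window in promoter number. They held a median of 2 LCC H3K4me3 summits, and 46.1% held no more than the window's 1. The H3K27ac count of the window was not unusual in the H2087 lists: 77.4% of these tiles held as few or fewer H3K27ac summits in TGFb, 84.1% in SO1, and 85.0% and 78.3% in LCC replicates 1 and 2.

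Downstream of the promoter, a further element with H3K27ac and H3K4me1 but no H3K4me3 lay about 7 kb into the gene side. Its H3K27ac summit stood at 138854886 in TGFb, 138854950 in SO1, and 138854863 and 138854888 in LCC replicates 1 and 2. H2030 had no summit there. H3K27ac scored 61.9 in TGFb, 50.0 in SO1, and 77.1 and 144 in LCC. It was the second strongest of the 5 H3K27ac summits of the window in each LCC replicate, and the third of 5 in TGFb and in SO1. Within its own list the summit stood in the first 31.7% in TGFb, 40.4% in SO1, and 9.42% and 7.58% in the LCC replicates, from which no difference is read, as the lists differ in length and depth. H3K4me1 scored 73.6 in TGFb, 55.9 in SO1 and 107 in LCC. This was the strongest H3K4me1 summit of the window in TGFb and in LCC, and the fifth of 8 in SO1.

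Farther downstream, at about 20 to 24 kb, H3K27ac was called in TGFb and SO1 and hardly in LCC. The farther of the pair of elements, at 138837577-138838820, carried H3K27ac with a score of 63.3 in TGFb and 35.8 in SO1. No LCC replicate had a summit within 1 kb; the nearest ones to the TGFb summit lay 2556 bp away in replicate 1 and 14185 bp away in replicate 2. H3K4me1 was present in all the H2087 conditions, with scores of 44.3 in TGFb, 83.0 in SO1 and 22.2 in LCC. The nearer element, at 138841198-138841785, had H3K27ac scores of 24.9 in TGFb and 53.1 in SO1. LCC replicate 1 had a weak summit of 6.05 there, and replicate 2 had none. Its H3K4me1 scored 47.0 in TGFb, 77.8 in SO1 and 29.4 in LCC. H2030 had no summit of any mark at either element.

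Within the window, the pair was placed as follows in each library's own list. In TGFb the farther element was the second strongest H3K27ac summit of the window, by a small margin (63.3 against 61.9 at the 7 kb element). In SO1 the nearer one was, again by a small margin (53.1 against 50.0). Over the whole lists the farther and nearer summits stood in the first 31.4% and 46.7% in TGFb, and 46.7% and 39.3% in SO1. In LCC replicate 1 the nearer one ranked 4 of 5. In SO1 the farther and nearer elements ranked 3 and 4 among the 8 H3K4me1 summits of the window, above the element at 7 kb. In TGFb they ranked 5 and 4 of 9, and in LCC 6 and 4 of 10, below that element in both. These are orders within single libraries, with no replicate of H3K4me1, and no test of a difference was possible. The TGFb and SO1 values share the same LCC libraries for comparison. New H3K27ac at sites with H3K4me1 was common over the genome. Of the sites with H3K4me1 in both conditions, no H3K4me3 in either and no LCC H3K27ac, 20.9% carried H3K27ac in TGFb and 18.9% in SO1. The farther element is such a site, and the nearer is not, as LCC replicate 1 had H3K27ac there. The replicates were compared on a different set, the sites with LCC H3K4me1, no LCC H3K4me3 and no H3K27ac in 1 LCC replicate. There the other replicate carried H3K27ac at 13.7% (replicate 2 where 1 lacked it) and 4.38% (the reverse).

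Upstream of the promoter, the window held mostly weak H3K4me1. The strongest upstream element, at 138875547-138876043 and about 14 kb from the start, had H3K4me1 scores of 4.00 in TGFb, 51.8 in SO1 and 23.8 in LCC. Within the lists, 87.2% of the H3K4me1 summits in TGFb, 15.2% in SO1 and 27.2% in LCC scored as high or higher. SO1 also had H3K27ac there, with a score of only 3.44, in the lowest 3.94% of its list. The remaining summits upstream of the promoter site scored between 2.84 and 6.33. They were H3K4me1 summits of SO1, H2030 and LCC and 1 H3K27ac summit of LCC replicate 2.

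Merging all summits within 1 kb gave 11 sites in the window, and a library carried a site when a summit of it lay within 1 kb. For H3K27ac a site counted as an LCC site only when both replicates carried it, and as new only when neither did. Of the 5 sites of the window with H3K27ac in either LCC replicate, 2 were carried in one alone: the one 20.5 kb downstream in replicate 1 and the one 2.5 kb upstream in replicate 2. Over the genome 36.2% of such sites (20184 of 55792) were carried in one replicate alone. The promoter site was carried in 11 of the 13 libraries, and no other site in more than 7. H2030 lacked H3K4me3 at the only site that had it in LCC, H3K27ac at all 3 sites carried in both LCC replicates (and at the other 2 sites carried in one), and H3K4me1 at 8 of the 10 LCC sites. Over all sites of the genome H2030 lacked 30.5% of the LCC H3K4me3 sites, 43.8% of the H3K27ac sites of both replicates and 53.4% of the H3K4me1 sites, weak sites included. With no H2030 summit allowed within 10 kb, the counts in the window were 1, 3 and 3, beside 22.2%, 29.2% and 27.1% over the genome. Neither of the 2 sites with H3K4me1 in H2030 was new against LCC, beside 49.0% over the genome.

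TGFb and SO1 each carried H3K4me3 at the promoter, where over the genome they lacked 5.62% and 10.0% of the LCC H3K4me3 sites. They carried H3K27ac at 2 of the 3 sites carried in both LCC replicates. Of the sites carried in one LCC replicate, both conditions carried the one 20.5 kb downstream and neither carried the one 2.5 kb upstream. The H3K27ac site of both replicates without a counterpart in either condition was the one 2.2 kb downstream of the start, where the LCC scores were only 4.61 and 3.22. Over the genome TGFb lacked 9.12% and SO1 16.0% of the H3K27ac sites carried in both LCC replicates. H3K4me1 was missing at 3 of 10 LCC sites in TGFb and at 3 of 10 in SO1, beside 22.9% and 32.5% over the genome. These sites had LCC scores between 4.69 and 6.33. New against LCC were 1 of 4 H3K27ac sites in TGFb and 2 of 5 in SO1, beside 26.1% and 23.5% over the genome, and 1 of 8 H3K4me1 sites in TGFb, beside 23.0%. The LCC replicates themselves differed in H3K27ac at 2 of 5 sites of the window and at 36.2% over the genome, as given above, and the other conditions have 1 library each, so these H3K27ac counts cannot be told apart from a difference between libraries. SO1 had no new H3K4me1 site, where the genome gave 26.3%. With no LCC summit allowed within 10 kb, only the weak upstream H3K27ac site of SO1 was left as new, beside 12.3% over the genome. TGFb had 0 new sites at that distance, beside 11.5% for H3K27ac and 6.1% for H3K4me1. Neither condition lacked any LCC site of the window when no summit of its own was allowed within 10 kb. Over the genome TGFb then lacked 2.83% of the H3K27ac and 5.65% of the H3K4me1 sites, and SO1 7.34% and 10.7%.

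The promoters most like that of TMEM173 over the 13 libraries were sought by the within-list percentiles of their highest summits, with 0 where there was none. Of 38095 sites with H3K4me3 in any library, 622 (1.63%) were carried in the same 11 libraries as TMEM173 and missing from the same pair, while 10238 (26.9%) were carried in all 13. The nearest by Euclidean distance in percentile points was 14:103018315-103019249, at a distance of 29.2, against a median of 189 over all other such sites. It was followed by 1:24647804-24650222 (29.9), 6:7050306-7053690 (33.7), 7:47489408-47492712 (36.4) and 8:124193839-124195374 (38.1). The H2030 percentiles entered this distance, so a shared lack of H2030 marks was favoured by the choice itself. Of these sites, all but the one on chromosome 7 lacked H2030 H3K4me3 and H3K27ac within 1 kb. That one lacked H3K4me3 and had weak H3K27ac at the 8.96 percentile. None of the sites was placed as high as TMEM173 for H3K27ac in both LCC replicates: their percentiles were 87.5 to 97.9 in replicate 1 and 93.8 to 98.2 in replicate 2. These sites are given by position only, since genes were not assigned in hg19.

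In the RefSeq gene order of GRCh38, the protein-coding neighbours of STING1 are SMIM33 and then ECSCR on the side of lower coordinates, and UBE2D2 on the side of higher coordinates, with pseudogenes and a long noncoding RNA between STING1 and UBE2D2. ECSCR encodes a surface protein of endothelial cells, and UBE2D2 a ubiquitin-conjugating enzyme. Which of these genes the flanking elements lie in or near was not determined, because no coordinates were converted between builds.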

How the data were processed

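Of the 18 samples, 13 are immunoprecipitated libraries with a list of peaks; the 5 inputs were not analysed here. The build is hg19, and Bowtie2, SAMtools and deepTools were used, per the submitters' processing notes. Which program called the peaks, with which control and threshold, is not given in the sources used here. The lists deposited by the authors hold 1 bp summits with a score, read as a −log10 p-value or q-value, since no score lies below 1.30103, the −log10 of 0.05. Peak widths, read counts and depth are unknown. Peak names show that each list came from 1 library.

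Chromosomes 1 to 22 and X were analysed with Python 3.11.15, numpy 2.4.6, pandas 2.3.3 and scipy 1.17.1, which left out between 29 and 238 summits per list. Sites, gains and losses were defined by 1 kb distances, and losses and gains were recovered for all 200 H3K4me3 sites planted each way in simulated data. The planted sites stood far from any other summit, so this recovery checks the code only. It does not bear on calls at closely spaced or weak sites. No test was run. Every site of the window is described, and the 5 most alike promoters were named by the distance rule. The members and lists were chosen with earlier results of these data known; the comparison with strong promoters, the 70 kb tiles and the neighbouring promoters were added after seeing the data. Alternatives were other distances, a score threshold of 10, lists cut to the same length, leaving out each LCC replicate and, added later, other conditions on promoter strength. Other genes of the pathway and cell type markers were not given values, since the gene table at hand is of GRCh38.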

Additional observations from a re-analysis of the deposited data

How the results depend on the processing

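The absence of H3K4me3 and H3K27ac summits at TMEM173 in H2030 could not change under the distances tried, of at most 10000 bp. The nearest such H2030 summits lay 36275 and 35915 bp from the LCC H3K4me3 summit. A score threshold and equal list lengths only remove summits, so they could not change it either. H2030 lacked 12 combinations of site and mark carried in LCC, between 11 and 13 with a distance of 500 or 2500 bp, lists of equal length or without an LCC replicate (13 without either), 8 with scores of at least 10, and 7 with no summit within 10000 bp; it gained 0 throughout. TGFb lacked 4 and SO1 4. At 2500 bp they lacked 1 and 2, at 10000 bp 0 and 0, and with scores of at least 10 they lacked 1 and 0. TGFb gained 2 (0 at 10000 bp) and SO1 2 (4 at 2500 bp, 1 at 10000 bp and 1 with equal lists). Without an LCC replicate, the gains ranged from 2 to 3 and the losses from 4 to 5 in TGFb and in SO1. The cause of these shifts was not tested, apart from fewer summits or a wider allowance by construction.

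The window held 33 of its 52 summits at scores of at least 10, 47 with equal lists and 29 within 20 kb centred on the start. Among summits with H3K4me3 within 1 kb, the percentile of the promoter H3K27ac summit was 97.8 in TGFb, 99.5 in SO1 and 99.9 in each LCC replicate. The promoter H3K4me1 summits had no H3K4me3 summit of their own condition within 1 kb, so they lay outside such a set. Their scores, set against the H3K4me1 summits that had one, stood at percentiles of 90.9 in TGFb, 93.1 in SO1 and 93.4 in LCC. In H2030 the percentile was 31.3 (59.5 among all its summits). Within 2500 bp the H3K4me1 percentile among all summits was 96.2 in TGFb, 96.4 in SO1 and 99.0 in LCC. The share of promoters without both marks in H2030 was 3.16%, 9.78% with no condition on strength and 0.679% in the top 25% of LCC H3K4me3 summits, choices made after seeing the data. The median replicate distance was 86.0 bp with equal lists.

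No paired analysis was possible because only LCC H3K27ac has replicates with a peak file. Single libraries, unknown depth and missing peak widths limit all statements on absence: a summit below the caller's threshold, or one joined into a neighbouring peak, is not listed.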
